A study of Mus musculus with 6 samples.

Results

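The 10 genes described here encode cytokines of the interleukin-6 (IL-6) family, their receptors and the core of the pathway they activate. They were chosen by symbol in the gene annotation (GENCODE M21): Il6, Il11, Lif and Clcf1 as ligands, Il6ra, Il6st, Lifr and Osmr as receptors, Stat3 as the transducer and Socs3 as the inhibitor. They are 10 of the 55536 genes counted in the series, and all 10 were among the 22404 genes with enough reads to be tested. RNA was sequenced from satellite cells, the stem cells of skeletal muscle, of C57BL/6J mice that carried Pax7CreErt2, a tamoxifen-induced Cre recombinase expressed from the Pax7 gene, whose activity is restricted to Pax7-expressing cells. Control mice were Pax7CreErt2;Hira fl/+ and cKO mice were Pax7CreErt2;Hira fl/fl. Hira encodes a chaperone that deposits histone H3.3. Both of its copies can be deleted in cKO satellite cells, and the floxed copy alone in control satellite cells. The sample labels call the controls WT, and the genotype given here is that of the study's text. All 6 samples (3 control, 3 cKO) came from adult mice whose cells were sorted 5 days after muscle injury and then grown for 48 h in a medium rich in serum. The study's methods give tamoxifen in the food before the injury, injury by barium chloride, and basic FGF in the medium. Whether the 3 samples of a group came from separate mice is not stated, so the p-values measure the spread between these samples, which may in part be technical.

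IL-6 family cytokines signal through receptor complexes that share the chain gp130, encoded by Il6st. IL-6 and IL-11 first bind a private receptor, encoded by Il6ra and Il11ra1, and then pair gp130 with itself, whereas LIF and cardiotrophin-like cytokine (Clcf1) pair gp130 with the LIF receptor, and oncostatin M pairs it with the oncostatin M receptor. The bound JAK kinases phosphorylate STAT3, which enters the nucleus and activates genes that include Socs3, whose product blocks gp130 signalling. In injured muscle these cytokines are made by muscle cells, fibroblasts and macrophages, and IL-6 and LIF are known to act on the growth of myoblasts.

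Promoter sequences of 5 genes are shown because they hold a motif of a transcription factor linked to the family. Of the 10 genes, 9 matched a promoter window of RefSeq on GRCm38.p6, which runs from 250 bases before a transcription start to 50 after it, with 11 windows in all. The motifs were picked with results of these data known and were searched on both strands. The AP-1 motif TGANTCA was in windows of Il6, Il11, Lif and Osmr, and in none of the windows of Il6ra, Il6st, Lifr, Socs3 and Stat3. Il11 and Lifr each had more than 1 window, and the motif was in 1 of the Il11 windows and absent from the other. The STAT motif TTCNNNGAA was in the window of Socs3 alone. The exact letters of the full cAMP response element, TGACGTCA, were in none of the 11 windows. Variants of this element were not searched, and the Il6 window holds cgacgtca, which differs from it in the first base only. Of all 32851 windows, 7.81% held the AP-1 motif, 8.30% the STAT motif and 1.79% the cAMP response element. The sequences run 5′ to 3′ on the strand of the gene up to the start, with the first base before the start counted as -1, and capitals mark the motif. The AP-1 motif begins at base -249 in Il6 (chr5:30012864-30013113, plus strand), at -98 in Il11 (chr7:4778142-4778391, minus strand), at -228 in Lif (chr11:4257318-4257567, plus strand) and at +4, just past the start, in Osmr (chr15:6874304-6874563, minus strand, shown 10 bases past the start), and the STAT motif begins at -154 in Socs3 (chr11:117969367-117969616, minus strand).
Il6: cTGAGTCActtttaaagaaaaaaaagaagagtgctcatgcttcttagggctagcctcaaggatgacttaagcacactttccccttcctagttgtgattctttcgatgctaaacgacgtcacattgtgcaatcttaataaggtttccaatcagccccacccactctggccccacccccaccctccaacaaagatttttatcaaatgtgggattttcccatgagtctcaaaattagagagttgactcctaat
Il11: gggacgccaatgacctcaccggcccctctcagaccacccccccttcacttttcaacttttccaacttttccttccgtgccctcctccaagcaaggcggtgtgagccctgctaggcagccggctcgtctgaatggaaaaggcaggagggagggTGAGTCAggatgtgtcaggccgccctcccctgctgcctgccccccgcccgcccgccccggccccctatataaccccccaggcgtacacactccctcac
Lif: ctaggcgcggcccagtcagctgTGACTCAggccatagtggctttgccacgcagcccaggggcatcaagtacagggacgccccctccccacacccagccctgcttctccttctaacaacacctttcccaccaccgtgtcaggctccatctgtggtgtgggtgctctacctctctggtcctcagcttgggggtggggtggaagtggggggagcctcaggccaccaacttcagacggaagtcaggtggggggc
Osmr: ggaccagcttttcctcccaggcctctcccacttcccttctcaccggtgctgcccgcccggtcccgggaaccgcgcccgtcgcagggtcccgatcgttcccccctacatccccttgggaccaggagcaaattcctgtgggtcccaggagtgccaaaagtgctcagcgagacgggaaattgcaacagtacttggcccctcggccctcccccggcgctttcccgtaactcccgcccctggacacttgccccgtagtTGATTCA
Socs3: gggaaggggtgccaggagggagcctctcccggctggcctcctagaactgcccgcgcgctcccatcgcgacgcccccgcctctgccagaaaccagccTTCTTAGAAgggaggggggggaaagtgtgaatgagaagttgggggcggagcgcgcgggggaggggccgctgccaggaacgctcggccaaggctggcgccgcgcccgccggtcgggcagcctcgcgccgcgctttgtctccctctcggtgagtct
A match gives only the letters in the window, and no binding was measured here.

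The counted reads summed to between 47944477 and 63323577 per sample, and levels are given as CPM, the counts of a gene per 1000000 counted reads of its sample. Reads on Hira itself, the deleted gene, numbered 375, 348 and 341 in control samples against 161, 293 and 272 in cKO samples. Its log2 fold change was -0.43, with a standard error (SE) of 0.12 and an adjusted p of 0.0237. Without control replicate 1 its log2 fold change was -0.34, with an adjusted p of 0.104. A second annotated gene on the same strand covers 44.7% of its exons. By RT-qPCR the paper reports a sharp fall of Hira mRNA in cKO satellite cells after a tamoxifen diet, where it did not detect HIRA protein. That fall was larger than the fall in the counts here. The paper does not state that the cells of this RT-qPCR came from injured muscle or were cultured. The cause of the difference was not tested. Fold changes are cKO over control throughout, and adjusted p-values come from the quasi-likelihood test of edgeR, adjusted by the Benjamini-Hochberg method over all 22404 genes.

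Markers of the sorted cell type were abundant: the summed level of 10 satellite and myogenic cell markers, led by Des, Myog and Myod1, was 7096 to 7232 CPM in control and 6317 to 6779 CPM in cKO, and 7 of the 9 that could be tested were downregulated, 0 upregulated (median log2 fold change -0.16). Genes used as markers of other cells that make or answer IL-6 family cytokines differed between the groups as well. Of all genes tested, 9.38% were upregulated and 6.46% downregulated. All 16 macrophage markers were upregulated in cKO (median 1.06), and their sum, led by Lyz2, Ctss and Cd68, was 152 to 158 CPM in control and 320 to 375 CPM in cKO, with none of the 16 at 0. Of 12 fibroblast and fibro-adipogenic markers 7 of the 10 tested were upregulated and 0 downregulated (median 0.88). Their sum was 1113 to 1190 CPM in control and 1535 to 1713 CPM in cKO. Most of it came from Col1a2, Col3a1 and Col1a1, with mean control levels of 585.7, 393.0 and 119.5 CPM. The markers not tested had at most 12 counts in a sample, and Tcf21 had 0 counts in all control samples. Of 10 endothelial markers, led by Flt1, Vwf and Cdh5, 4 were upregulated and 0 downregulated, with a sum of 20.7 to 22.0 CPM in control and 30.5 to 36.3 CPM in cKO. The 6 neutrophil markers summed to at most 0.244 CPM in control and 0.501 CPM in cKO, with S100a9 at 0 in all 6 samples, and the 8 lymphocyte markers to at most 0.584 and 0.730 CPM, with Ms4a1 at 0 in all 6. The sort before culture kept CD34+ ITGA7+ cells that were CD45-, TER119- and SCA1-, a gate meant to leave out CD45+ macrophages and SCA1+ stromal and endothelial cells. Of the genes behind this gate, Ptprc, which encodes CD45, was at 1.27, 1.48 and 1.53 CPM in control and 2.63, 2.86 and 2.99 CPM in cKO after the culture (log2 fold change 0.96, SE 0.12, adjusted p = 5.22e-05). Ly6a, which encodes SCA1, was at 3.15, 3.13 and 2.85 CPM in control and 3.82, 3.38 and 3.78 CPM in cKO and did not pass the test (log2 fold change 0.24, SE 0.10, adjusted p = 0.115). Itga7, which encodes ITGA7, was at 625.5, 614.6 and 603.0 CPM in control and 595.7, 550.2 and 577.3 CPM in cKO. Its log2 fold change was -0.12 (SE 0.03, adjusted p = 0.0271), and it is among the downregulated myogenic markers above. These genes are named for the gate and were chosen after their values were seen. Levels for the other gate markers, CD34 and TER119, are not given here. The paper reports higher Cdh5 and Pdgfra RNA in satellite cells that lack Hira, and staining of such cells for VE-cadherin, the Cdh5 product. It reads these as genes of alternative lineages expressed in satellite cells. The part of macrophage, fibroblast and endothelial RNA in the results below was not tested. In such bulk samples a change in the number of cells of a type and a change in RNA per cell, satellite cells included, cannot be told apart.

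Of the 10 genes, 6 were upregulated in cKO (adjusted p under 0.05) and 0 were downregulated. They were all 4 ligands, the receptor chain Osmr and the inhibitor Socs3. Of all genes tested, 9.38% were upregulated and 6.46% were downregulated. DESeq2 called 5 of the 10 upregulated and 0 downregulated, and 0 had an unadjusted p under 0.05 in the downward direction. The median log2 fold change of the 10 was 0.37, beside -0.0011 over all genes tested. In 7 of the 10, every cKO sample lay above every control sample in CPM, as did 20.3% of all genes tested. Il6st is among the 7, but its groups overlapped once libraries were scaled by the TMM method.

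**Figure D1:**
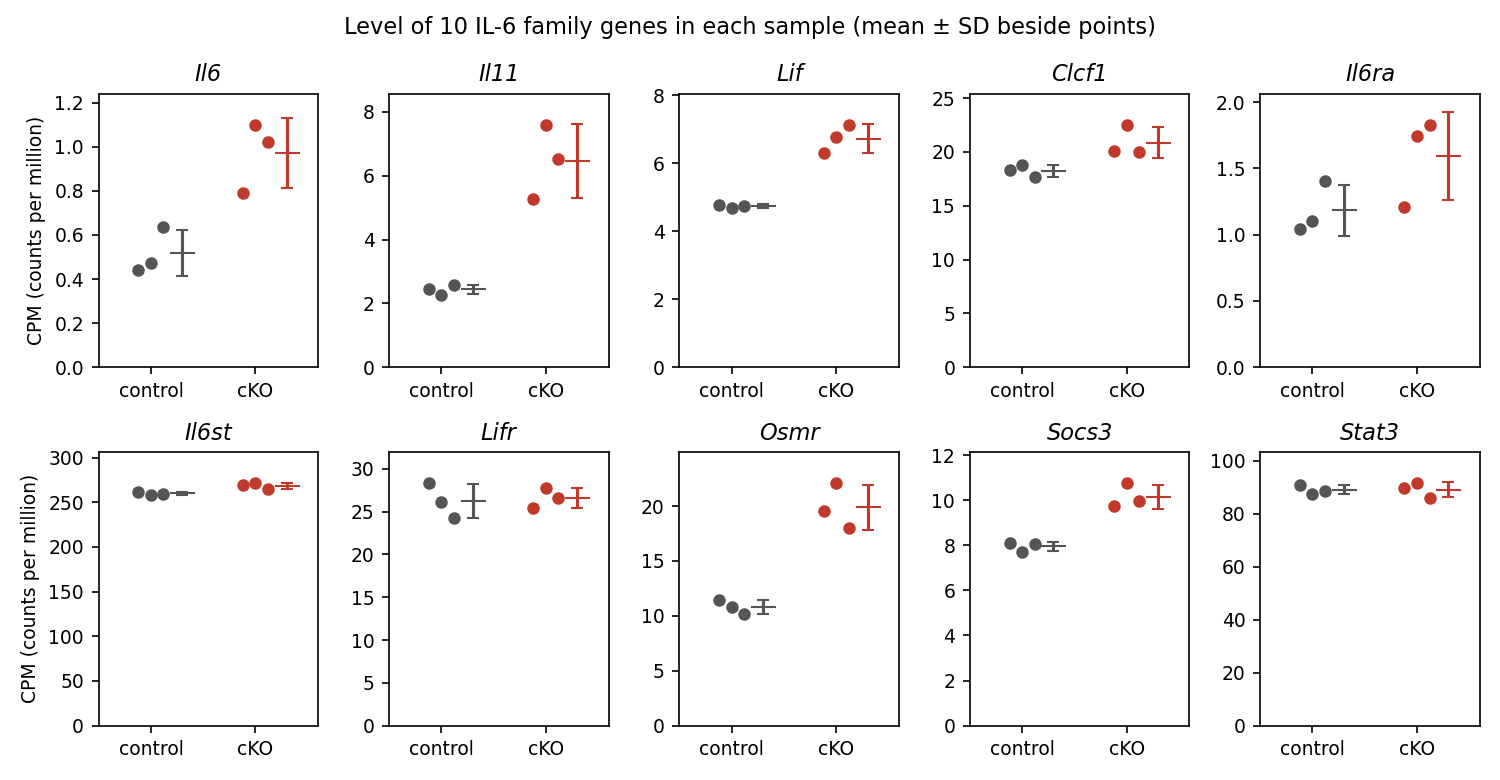
Level in CPM (axes from 0) of each of the 10 genes in the 3 control samples (grey points) and 3 cKO samples (red points), with mean ± SD beside them. The cKO points of Il6, Il11, Lif, Clcf1, Osmr and Socs3 lie above all control points, the cKO points of Il6st lie above by a small margin, and those of Il6ra, Lifr and Stat3 overlap with control.

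Il11 (chromosome 7, 4772373 to 4782859, minus strand), a cytokine that acts on fibroblasts and other stromal cells, had the largest fold change of the 10. Its level was 2.46, 2.27 and 2.57 CPM in control replicates 1, 2 and 3 and 5.28, 7.59 and 6.54 CPM in cKO replicates 1, 2 and 3. Every cKO sample was more than all controls, and the cKO samples were spread more widely (6.47 ± 1.16 CPM against 2.44 ± 0.151, SD, n = 3 each). The log2 fold change was 1.39 (SE 0.12, 95% interval 1.14 to 1.65, adjusted p = 9.56e-07), a 2.63-fold rise.

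Il6 (chromosome 5, 30013114 to 30019981, plus strand) encodes the founding cytokine of the family, which exercised and regenerating muscle releases. It was the lowest of the 4 ligands in CPM, and its values rest on few reads: 25, 30 and 39 counts in control and 38, 65 and 57 counts in cKO. These are 0.442, 0.474 and 0.635 CPM in control and 0.793, 1.10 and 1.02 CPM in cKO. The groups did not overlap, and control replicate 3 and cKO replicate 1 were nearest to each other. The log2 fold change was 0.89 (SE 0.21, 95% interval 0.44 to 1.34, adjusted p = 0.00908).

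Lif (chromosome 11, 4257557 to 4272514, plus strand) encodes leukemia inhibitory factor. It was measured at 4.78, 4.67 and 4.76 CPM in control, where the samples were nearly level, and at 6.30, 6.76 and 7.13 CPM in cKO. The log2 fold change was 0.49 (SE 0.08, 95% interval 0.32 to 0.65, adjusted p = 0.000333). Clcf1 (chromosome 19, 4214238 to 4223490, plus strand), whose product acts through the CNTF receptor, was the highest of the 4 in CPM, with 18.3, 18.8 and 17.7 CPM in control and 20.04, 22.50 and 19.97 CPM in cKO. The groups of Clcf1 were close to each other but did not overlap. Its log2 fold change was 0.17 (SE 0.05, 95% interval 0.06 to 0.28, adjusted p = 0.0417). This call was lost with DESeq2 (adjusted p = 0.108) and when any sample other than cKO replicate 1 was left out. Another annotated gene shares the strand over 8.17% of the exonic bases of Clcf1.

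The 2 ligands Il11 and Lif were also set against each other. The ratio of Il11 to Lif counts within a sample, which does not depend on library size, was 0.515, 0.487 and 0.541 in control and 0.838, 1.12 and 0.917 in cKO. Its mean was 0.89 higher in cKO on the log2 scale, with no overlap between groups. In an exact two-sided permutation test p was 0.1, the smallest that 3 samples against 3 allow, and 0.125 after adjustment over the 5 ratios computed, which were chosen after the values were seen.

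Of the 4 receptor genes among the 10, 1 passed the test. Osmr (chromosome 15, 6813577 to 6874969, minus strand), the chain that pairs with gp130 to bind oncostatin M, had 11.5, 10.8 and 10.2 CPM in control and 19.5, 22.1 and 18.1 CPM in cKO. All cKO samples were far above the controls (19.9 ± 2.03 CPM against 10.8 ± 0.634, SD, n = 3 each). The log2 fold change was 0.86 (SE 0.07, 95% interval 0.71 to 1.0, adjusted p = 4.74e-07), a 1.81-fold rise.

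Lifr (chromosome 15, 7090614 to 7197489, plus strand), the related chain for LIF, did not pass the test. It had 28.3, 26.1 and 24.3 CPM in control and 25.5, 27.7 and 26.6 CPM in cKO, and the groups overlapped fully. The 95% interval of its log2 fold change ran from -0.12 to 0.11 (adjusted p = 0.984). Il6st (chromosome 13, 112464070 to 112510086, plus strand), the shared gp130 chain, was at 262.0, 258.5 and 259.5 CPM in control and 268.8, 271.0 and 265.1 CPM in cKO. The log2 fold change was 0.02 (SE 0.03, 95% interval -0.04 to 0.08, adjusted p = 0.71).

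Il6ra (chromosome 3, 89864059 to 89913196, minus strand), the private receptor of IL-6, had 1.04, 1.11 and 1.40 CPM in control and 1.21, 1.74 and 1.83 CPM in cKO. Its lowest cKO sample, replicate 1, lay within the control values. The log2 fold change was 0.41 (SE 0.18, 95% interval 0.04 to 0.79, adjusted p = 0.138), which did not pass the threshold. When cKO replicate 1 was left out the value rose to 0.56 and passed the test (adjusted p = 0.0245).

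The chains encoded by Osmr and Lifr both pair with gp130, and their counts were set against each other in each sample. The ratio of Osmr to Lifr counts was 0.406, 0.412 and 0.421 in control and 0.767, 0.796 and 0.679 in cKO, 0.85 higher in cKO on the log2 scale. The ratio of Osmr to Il6st was 0.83 higher on the same scale, and both ratios separated the groups (exact two-sided permutation p = 0.1 for each, adjusted 0.125). The ratio of Lifr to Il6st was 0.0935 to 0.108 in control and 0.0948 to 0.102 in cKO, with overlap (exact permutation p = 0.9). Osmr and Lifr are neighbours on chromosome 15, with 215.6 kb between them.

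Stat3 (chromosome 11, 100885098 to 100939540, minus strand), the transducer, was at 91.0, 87.5 and 88.7 CPM in control and 89.9, 91.4 and 86.0 CPM in cKO. The groups overlapped, and the log2 fold change was -0.02 (SE 0.03, 95% interval -0.10 to 0.05, adjusted p = 0.715). Phosphorylation of STAT3, which sets its activity, is not read by RNA. Socs3 (chromosome 11, 117966079 to 117970047, minus strand), its target and the feedback inhibitor of gp130, was at 8.08, 7.72 and 8.05 CPM in control and 9.74, 10.7 and 9.98 CPM in cKO. All cKO samples were above the controls, with a log2 fold change of 0.33 (SE 0.06, 95% interval 0.20 to 0.46, adjusted p = 0.00169). The ratio of Socs3 to Stat3 counts was 0.0883 to 0.0907 in control and 0.108 to 0.118 in cKO, 0.35 higher on the log2 scale (exact two-sided permutation p = 0.1, adjusted 0.125).

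**Figure D2:**
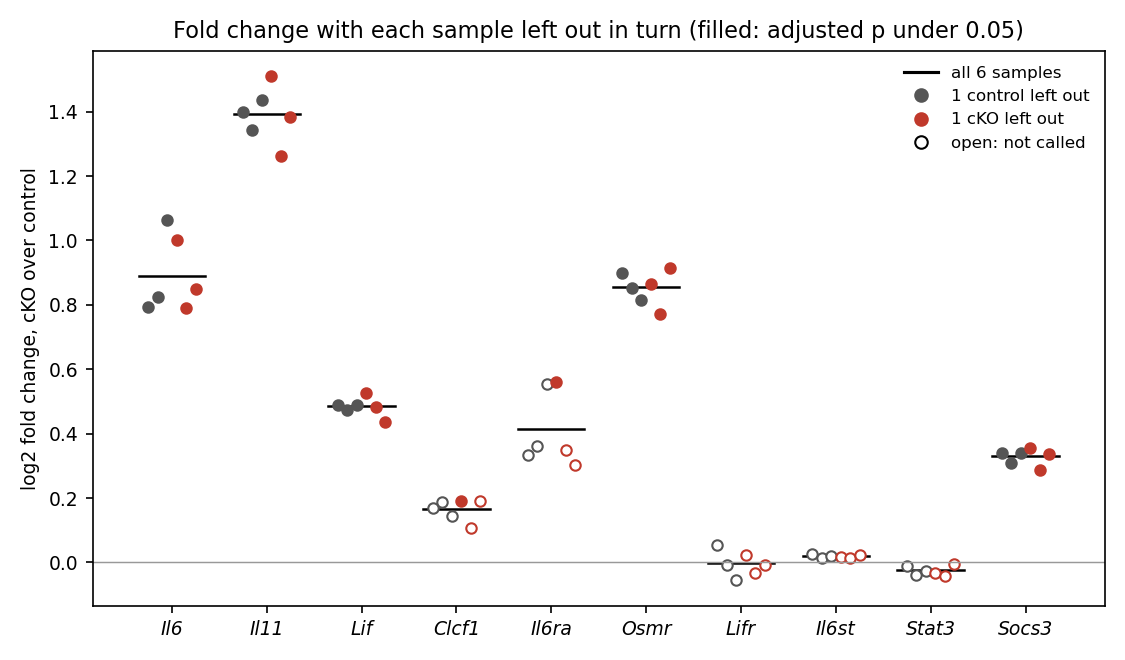
Log2 fold change of each of the 10 genes with all 6 samples (black bar) and with 1 control (grey) or 1 cKO sample (red) left out; filled points have an adjusted p under 0.05. Il6, Il11, Lif, Osmr and Socs3 were called with any sample left out, whereas Clcf1 and Il6ra were called in 1 of the 6 cases each and Lifr, Il6st and Stat3 in none.

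The calls of Il6, Il11, Lif, Osmr and Socs3 were kept with any 1 sample left out. Over those 6 fits the log2 fold change lay between 0.79 and 1.06 for Il6, 1.26 and 1.51 for Il11, 0.44 and 0.53 for Lif, 0.77 and 0.92 for Osmr, and 0.29 and 0.36 for Socs3. For Il6 the highest adjusted p of these fits was 0.0471.

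Levels were also divided by exon length, as CPM per kb of exon, so that the 10 genes could be ordered. In control the order was Il6st (23.4), Stat3 (9.35), Clcf1 (4.80), Socs3 (2.75), Lifr (2.43), Il11 (1.17), Lif (1.09), Osmr (0.893), Il6 (0.213) and Il6ra (0.137). Il11 and Lif were the only neighbours in this order whose sample ranges overlapped. In cKO the order was Il6st (24.2), Stat3 (9.35), Clcf1 (5.48), Socs3 (3.51), Il11 (3.11), Lifr (2.47), Osmr (1.64), Lif (1.55), Il6 (0.400) and Il6ra (0.184). There Il11 overlapped with both Socs3 and Lifr, and Osmr with Lif. The mRNA of the shared chain and of the transducer was thus more abundant per length than that of any ligand or partner chain in both groups, and the private IL-6 receptor was the lowest of the 10. The lengths are unions of all annotated exons, which understate the level of a gene with long exons that are rarely used.

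**Figure D3:**
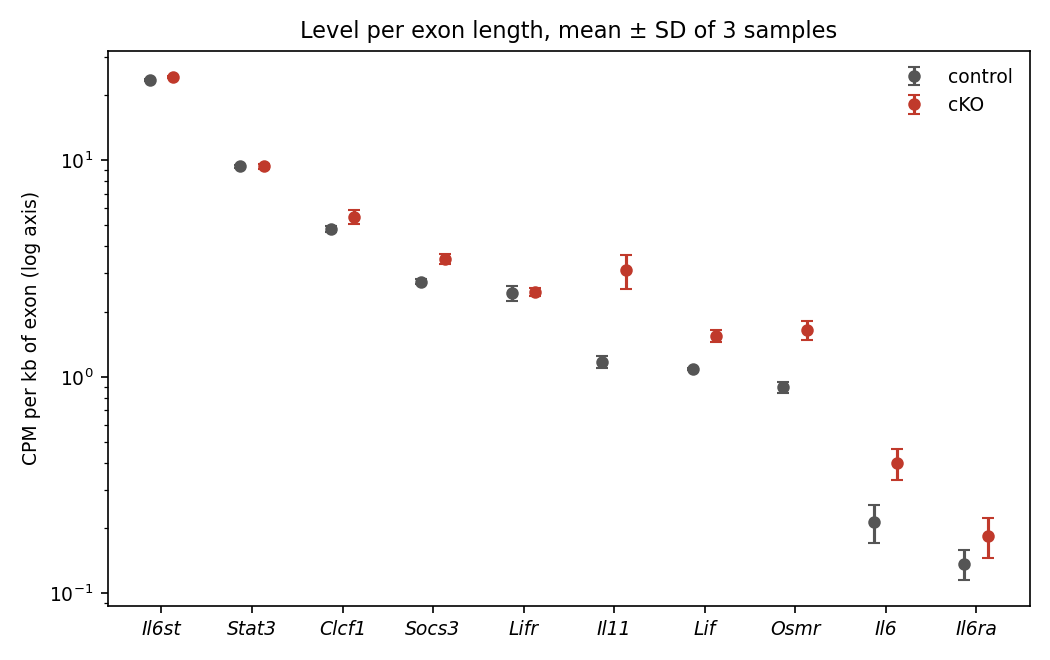
Level of the 10 genes in CPM per kb of exon on a log axis, mean ± SD of 3 control (grey) and 3 cKO (red) samples, ordered by the control level. Il6st is highest (23.4 and 24.2) and Il6ra lowest (0.137 and 0.184), and Il11 moves from below Lifr in control to 3.11 against 2.47 in cKO.

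Among further ligands of the family, the cardiotrophin genes Ctf1 and Ctf2 had log2 fold changes of -0.04 (SE 0.10) and -0.08 (SE 0.23) and did not pass the test. Cntf, ciliary neurotrophic factor, was also tested and not called, and 78.9% of its exonic bases lie in Zfp91.

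Osm, the ligand of the chain encoded by Osmr, was near the limit of detection in these libraries. Its counts were 2, 0 and 2 in control against 0, 4 and 5 in cKO, and it was not tested. Il27, Ebi3 and Il31, ligands or subunits made mainly by immune cells, had at most 3 counts in any sample and were likewise not tested. The counts of Osm give no information on oncostatin M protein from serum or from cells outside the culture.

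Of 5 other receptors, 4 were tested, with 2 upregulated and 0 downregulated (median log2 fold change 0.47). The shares over all genes tested were 9.38% and 6.46%. Cntfr, the membrane-anchored receptor of CNTF and of the Clcf1 product, was read 39, 46 and 32 times in control and 78, 109 and 80 times in cKO. This is 0.690, 0.726 and 0.521 CPM in control against 1.63, 1.84 and 1.43 CPM in cKO, with no overlap and a log2 fold change of 1.31 (SE 0.18, adjusted p = 9.66e-05). Il11ra1, the receptor of IL-11, was at 5.80, 6.06 and 5.46 CPM in control and 7.80, 7.08 and 7.81 CPM in cKO. Its log2 fold change was 0.36 (SE 0.07, adjusted p = 0.00323), though 36.0% of its 75-base windows also occur in near-identical genes. For its copy Il11ra2 all such windows are shared, and its log2 fold change of 0.53 (SE 0.35) did not pass. Il27ra did not pass either, with 0.41 (SE 0.34), and Il31ra, the partner of Osmr for IL-31, had at most 4 counts in a sample and was not tested.

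**Figure D4:**
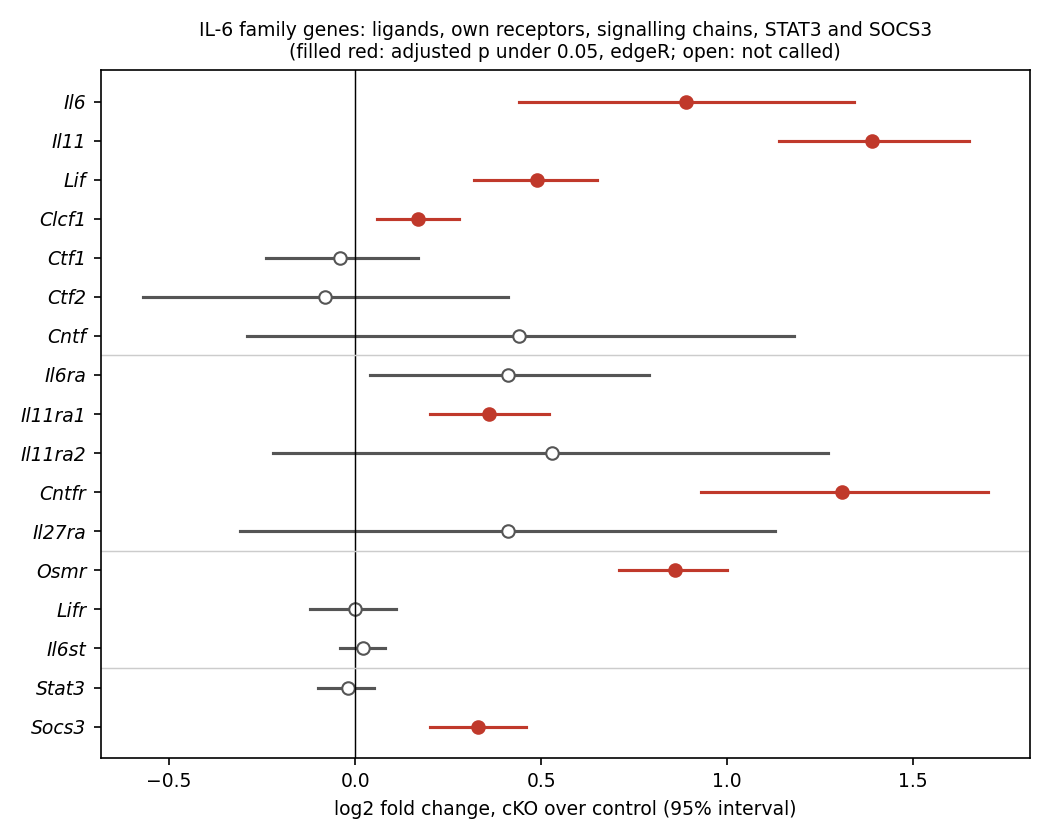
Log2 fold change, cKO over control, with its 95% interval for tested ligands, private receptors, signal-transducing chains, Stat3 and Socs3, in 4 blocks from top to bottom. Filled red points passed an adjusted p of 0.05; of the 3 transducing chains Osmr stands at 0.86 while the intervals of Lifr and Il6st include 0.

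Of 17 further JAK-STAT transducers and inhibitors, 2 were upregulated and 1 was downregulated, and the median log2 fold change was 0 to 2 decimals. These counts are near the shares over all genes tested, 9.38% upregulated and 6.46% downregulated. Jak2, a kinase bound by gp130, had 40.0, 41.0 and 43.0 CPM in control and 43.5, 52.5 and 49.0 CPM in cKO (log2 fold change 0.20, SE 0.05, adjusted p = 0.0179). The counts of Cish, an inhibitor induced by STAT5, were 30, 42 and 44 in control against 61, 59 and 48 in cKO, with a log2 fold change of 0.67 (SE 0.20, adjusted p = 0.0363). Adam10, a protease that can shed the IL-6 receptor, fell by 0.18 on the log2 scale (SE 0.05, adjusted p = 0.0284). Each of these 3 calls was lost when some samples were left out: Jak2 kept its call in 2 of the 6 fits, Cish in 1 and Adam10 in 3. The call of Cish was also lost with DESeq2 (adjusted p = 0.116), and that of Adam10 when libraries were scaled by total counts alone (adjusted p = 0.0622). The 2 most abundant genes that did not pass were Ptpn11, encoding the phosphatase SHP2 (log2 fold change -0.03, SE 0.03), and Socs2 (0.03, SE 0.03).

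Genes that STAT3 is known to activate or bind were read as a list of 20, of which 17 were tested. Of these, 8 were upregulated and 1 was downregulated, beside 9.38% and 6.46% of all genes tested, with a median log2 fold change of 0.13. Several genes of the list also answer to many other factors. Timp1, an inhibitor of matrix proteases, was at 173.2, 194.8 and 194.4 CPM in control and 261.1, 266.8 and 237.4 CPM in cKO, and its log2 fold change was 0.42 (SE 0.05, adjusted p = 1.64e-05). Il4ra, a receptor chain for interleukin-4, was at 33.6, 32.9 and 32.4 CPM in control and 43.6, 45.4 and 43.7 CPM in cKO, and its log2 fold change was 0.40 (SE 0.04, adjusted p = 1.88e-06). In both genes the groups were well apart.

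The survival genes Bcl2l1 and Mcl1 rose by 0.28 (SE 0.04) and 0.16 (SE 0.03) on the log2 scale. The transcription factors Myc and Cebpd rose by 0.26 (SE 0.05) and 0.29 (SE 0.07). The cyclin gene Ccnd1 and the angiogenic factor Vegfa rose by 0.13 (SE 0.03) and 0.10 (SE 0.03). The adjusted p-values of these 6 genes ran up to 0.0282, that of Vegfa, whose call was lost in 3 of the 6 fits with 1 sample left out. The call of Cebpd was lost in 2 of the 6 and that of Ccnd1 in 1. Bcl6, a transcriptional repressor, went the other way, from 93.5, 80.6 and 86.4 CPM in control to 61.9, 75.1 and 75.6 CPM in cKO, and its log2 fold change was -0.32 (SE 0.06, adjusted p = 0.00336).

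Hif1a and Junb, the most abundant of those that did not pass, had log2 fold changes of 0.06 (SE 0.03) and 0.09 (SE 0.05). Without cKO replicate 2 Junb was called, at 0.15 with an adjusted p of 0.00849. The acute-phase genes Lcn2, Serpina3n and Lrg1 had too few reads to be tested. Of these Serpina3n had 0 counts in all 3 control samples and 3, 6 and 7 counts in cKO.

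Of 16 regulators of Il6 transcription and mRNA decay, 3 were upregulated and 1 was downregulated, with a median log2 fold change of 0.01. These counts stand beside 9.38% upregulated and 6.46% downregulated of all genes tested. Nfkbiz, which encodes a nuclear cofactor of NF-kappaB needed for Il6 induction in macrophages, was at 16.4, 18.2 and 16.7 CPM in control and 22.7, 27.7 and 25.3 CPM in cKO, with no overlap. Its log2 fold change was 0.54 (SE 0.06, adjusted p = 2.69e-05). The products of Zc3h12a and Zfp36 promote the decay of Il6 and other cytokine mRNAs, and both genes were upregulated, with log2 fold changes of 0.25 (SE 0.06, adjusted p = 0.00702) and 0.29 (SE 0.06, adjusted p = 0.00418). Arid5a, whose product stabilises Il6 mRNA, was downregulated, with a log2 fold change of -0.15 (SE 0.04, adjusted p = 0.0191). Its call was lost when libraries were scaled by total counts alone and without control replicate 1 or 2. Nfkb1 (log2 fold change -0.01, SE 0.04) and the interleukin-1 receptor gene Il1r1 (-0.07, SE 0.04) were the most abundant that did not pass.

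**Figure D5:**
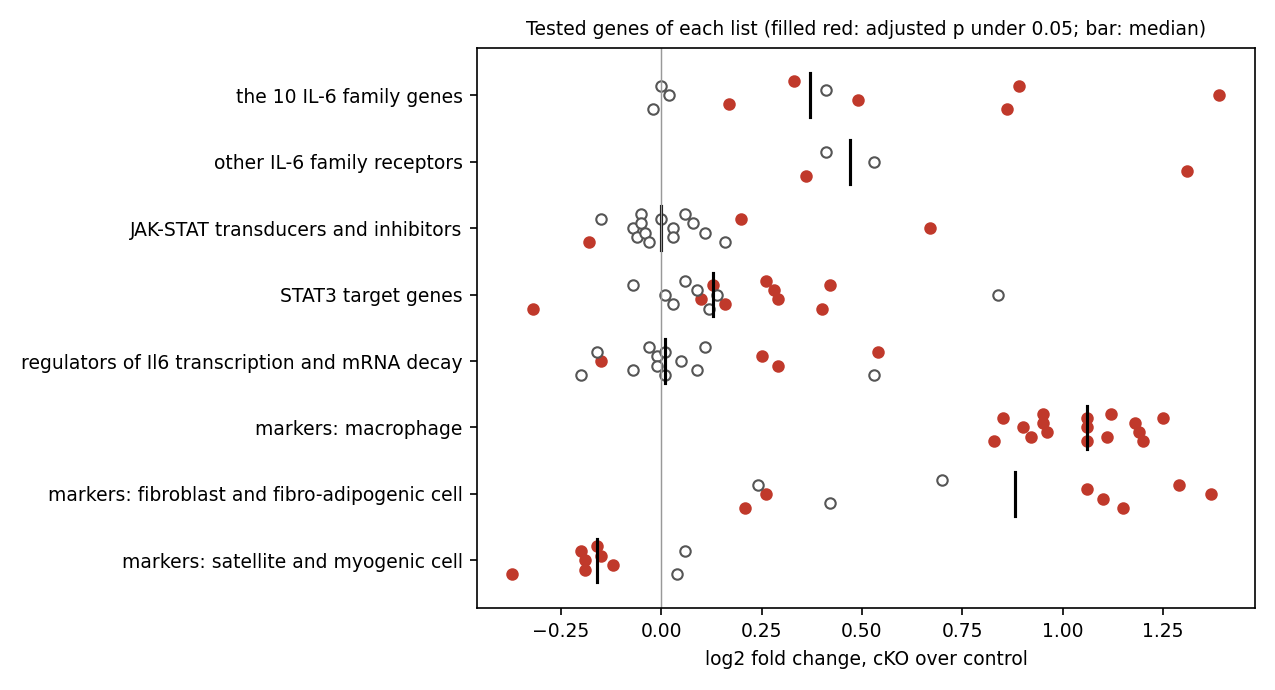
Log2 fold change, cKO over control, of every tested gene of the 10 IL-6 family genes, 4 further lists and 3 marker lists; filled red points have an adjusted p under 0.05 and black bars are medians. The median is 0.37 for the 10 genes and 0.13 for STAT3 target genes, against 1.06 for macrophage markers and 0.88 for fibroblast markers; vertical offsets only separate points.

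The genes that neighbour the 6 upregulated ones were read from the same fit and are described without a test, beside the 9.38% of all tested genes that were upregulated and the 6.46% that were downregulated. Within 250 kb of Il11, 30 other genes were tested and 0 were called in either direction. Within the same distance of Lif, 11 were tested and 0 were called, and of Il6, 11 were tested with 0 upregulated and 2 downregulated. Near Osmr 1 of 4 was upregulated, near Socs3 0 of 11 were upregulated and 1 downregulated, and near Clcf1 0 of 31 were upregulated and 5 downregulated. Osm lies 16.5 kb from Lif, and Cntfr lies 2.90 kb from Il11ra1 on chromosome 4.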

How the data were processed

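RNA was measured in 6 samples, 3 control and 3 cKO, grouped by the labels. Libraries were made with a stranded total RNA kit after removal of ribosomal RNA and read as single ends of 75 bp. The authors aligned reads to mm10 with Bowtie2 2.3.4.2 and counted them per gene with featureCounts 1.6.3; the values the authors deposited are raw counts, with versions per the submitters' processing notes; the strand setting is not given in the sources used here. Bowtie2 does not split reads over introns, so reads across exon junctions are under-represented. A normalized copy of the counts and the authors' comparison table (fold changes and p-values) were also deposited and not used.

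Counts were filtered with filterByExpr, scaled by TMM and compared with edgeR 4.0.16 (quasi-likelihood test, a single genotype term; R 4.3.3), and p-values were adjusted by the Benjamini-Hochberg method, with a threshold of 0.05. Tested on simulated counts of cKO against control with 200 changed genes among 22414 tested, the test found 91.5% of the changed genes and 7.58% of what it called had not been changed. For DESeq2 1.42.0 these shares were 82.5% and 4.07%. The coefficient of variation between replicates was 3.92%, and no replicate pair agreed within sampling noise. Symbols, coordinates and exon lengths are from GENCODE M21, on the build of mm10. Totals ranged from 47944477 to 63323577 counts.

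The members, lists and motifs were chosen with earlier results of these data known. Named are the 10 genes, Hira, and every gene of each further list that passed. The 2 most abundant that did not pass and those too low to test are named too. Markers are given as sums with the 3 most abundant, apart from genes named for the sort gate or reported by the paper. A result of the list of further ligands, and the counts of that list, are not reported here. Alternatives were DESeq2, other scalings and filters, a replicate block, and leaving out each sample. Tables and plots were made in Python 3.11.15 (numpy 2.4.6, pandas 2.3.3, matplotlib 3.10.9).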

Additional observations from a re-analysis of the deposited data

How the results depend on the processing

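Over all genes, 2101 were upregulated and 1448 downregulated; with 1 sample left out the counts ranged from 1571 to 2214 and from 917 to 1673, and DESeq2 gave 1603 and 1252. The low downregulated counts arose without control replicate 1 (917), 2 (934) or 3 (960). Scaling by total counts gave 2462 and 1057 and moved the median of all genes to 0.0233. Of the 10 IL-6 family genes 6 were upregulated with all samples, 5 with DESeq2, 5 with at least 1 CPM in 3 samples, where Il6 was not tested, and 5 to 7 with 1 sample left out; 0 were downregulated under any of these settings. Log2 fold changes near 0 changed sign: Lifr was 0.022 under total counts, 0.003 under the 1 CPM filter and between -0.056 and 0.053 with 1 sample left out, Ctf1 between -0.10 and 0.02 (0.017 without control replicate 2), Ctf2 between -0.15 and 0.01 (0.008 without cKO replicate 3), Socs2 between -0.003 without cKO replicate 2 and 0.037 without cKO replicate 1, and Nfkb1 was 0.01 under total counts and between -0.05 and 0.02 (0.022 without cKO replicate 1). The cause was not tested. For single genes, 431 of the values kept their direction and side of the threshold, 33 lost the call, 2 gained one and 9 changed sign.

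Control and cKO samples share replicate numbers. With a replicate block the fit called 1901 genes upregulated and 1251 downregulated, and 6 of the 10 IL-6 family genes upregulated; of the other named genes Cish, Adam10 and Vegfa lost their calls. Deviations of same-numbered samples had correlations of -0.0675, -0.048 and -0.0126 over 16641 genes, and the numbers were not taken to pair the samples. With 3 samples per group such correlations cannot exclude a pairing. The paper used a paired t-test for its RT-qPCR of control and cKO satellite cells. It does not say whether the sequenced samples were paired.

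Depth limits Il6, with 25 to 65 counts per sample, and Cntfr, and leaves ligands such as Osm untested.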
